A study of Homo sapiens with 4 samples.

Results

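PTPN1 encodes PTP1B, a tyrosine phosphatase held on the endoplasmic reticulum, and the regions described here are the 47 stretches of H3K27ac-marked chromatin that the authors' deposited table assigns to it, of 91107 distinct regions in all. Members were taken as every line whose gene is PTPN1. The gene itself was chosen by its deposited fold changes and adjusted p-values, so those values are given as a description, with no test, and support nothing. The study profiled H3K27ac, an acetylated histone H3 found at active promoters and enhancers, in ChIP-seq libraries of A375 melanoma cells, a long-established human line. Of the 4 libraries listed, 2 came from isopropanol-treated (vehicle) cells and 2 from cells exposed to octanoate at 1 mM, a medium-chain fatty acid, with 48 hours of treatment. All 4 come from this 1 line, grown in DMEM with serum, and the labels do not say whether replicates were separate cultures. The deposited table gives only the comparison, so no level in single samples can be shown, and the group in the numerator of its fold change is not named. Changes are therefore called positive or negative, not gains or losses under octanoate.

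PTP1B removes phosphate from tyrosines of activated receptors and their kinases. It is best known as a brake on the insulin receptor and on JAK2 downstream of the leptin receptor, and it also acts on receptors such as EGFR and on SRC, whose inhibitory tyrosine it can dephosphorylate. H3K27ac over a gene's start marks an active promoter, and H3K27ac away from starts marks candidate enhancers, whose assignment to a gene by the authors does not show that they regulate it.

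The sequence before the PTPN1 start is shown because the one member at distance 0 covers it. The 250 bases just upstream of the RefSeq start lie at chr20:50510133-50510382 on the plus strand of GRCh38.p14, the assembly also called hg38, which the submitters' processing notes name as their build. Capitals mark matches to the motifs searched.

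PTPN1 promoter: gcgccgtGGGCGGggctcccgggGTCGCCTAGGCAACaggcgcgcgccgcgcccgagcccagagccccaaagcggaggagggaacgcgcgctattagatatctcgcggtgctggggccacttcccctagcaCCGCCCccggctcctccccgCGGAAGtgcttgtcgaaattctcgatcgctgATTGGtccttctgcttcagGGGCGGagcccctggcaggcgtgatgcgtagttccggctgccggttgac

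This stretch had a GC content of 69.2% and held 29 CpG dinucleotides, against medians of 58.0% and 11 over the 35116 RefSeq promoters cut to the same 250 bases. Motifs were searched on both strands. The GC box GGGCGG matched 3 times and was present in 42.6% of all these promoters. The CCAAT box CCAAT matched once on the minus strand, from 68 to 64 bases before the start, and was present in 32.0% of promoters. The ETS core CGGAAG matched once, from 99 to 94 bases before the start, and was present in 16.5%. An X-box, the site bound by RFX factors, matched once from 227 to 214 bases before the start and was present in 1.08% of promoters. No match was found in this window for the TATA box TATAAA, the AP-1 site TGANTCA, the cAMP response element TGACGTCA, the E-box CACGTG, or the PPAR response element searched as a direct repeat of AGGTCA with 1 base between. These were present in 10.7%, 6.57%, 1.65%, 6.34% and 0.0171% of promoters, respectively. The matches are descriptions of letters, none overlapped another, and binding was not measured.

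The table as a whole sets the scale for the values below. An adjusted p-value was computed by the authors for 36436 regions, here called tested, and 608 of them, or 1.67%, were called at an adjusted p-value under 0.05 in the authors' deposited table. In the authors' deposited table, tested regions had a median log2 fold change of 0.32, so the main values are also given relative to that median. Multiplied by 8, the mean level was a whole number of millionths in 100% of lines (to within 0.001 of a millionth), and multiplied by 4 in 50.1%, while the labels describe 4 libraries. A mean over 8 values held to millionths would show such a pattern. Which libraries entered the mean level is not named, and the bearing of this on the fold changes was not tested. Of 13 genes of the melanocyte lineage and melanoma, 10 had a region at distance 0, and MLANA, TYR and DCT had none. The mean levels of the 10 ran from 55.2 at S100B to 803 at CSPG4, with a median of 272 and SOX10 at 774. Of 10 genes of other cell types, 2 had such a region, EPCAM at a mean level of 50.5 and DCN at 36.2.

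The PTPN1 regions spread over 216 kb, from chr20:50356987 to 50573220, and covered 36.1% of that span. By the distances in the authors' deposited table, 1 region lay at the start (distance 0), 31 upstream and 15 downstream of the start, and none was shared with another gene. PTPN1 was 1 of 63 genes with at least this many regions among 17301, against a median of 3 regions per gene. The start implied by the deposited distances lay within 30 bases of the RefSeq start, and all 15 downstream regions lay inside the RefSeq gene (chr20:50510383-50585241). Exons and introns were not analysed here. Of the 47 regions, 22 were tested, or 46.8%, against 40.0% of the whole table. The other 25 had mean levels of at most 18.4 and no adjusted p-value.

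The region over the start was strongly marked and lay close to the table's median change. It spans 6076 bases (chr20:50509039-50515115), 1344 before and 4732 after the RefSeq start. Its mean level in the authors' deposited table was 236, higher than at 92.8% of the 9996 tested regions at distance 0, whose median was 87.8. The change there, on the log2 scale, was 0.30 with a standard error of 0.20 by the authors' deposited table, a ratio of 1.23, and its adjusted p-value was 0.386. Relative to the median of tested regions this is -0.02, and 38.0% of the tested regions at distance 0 had a lower value. The 95% interval from the authors' standard error ran from -0.10 to 0.70, so it held both 0 and the table's median.

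All 3 called regions of PTPN1 lay upstream, between 65 and 93 kb from the start, and all 3 were positive. The farthest (chr20:50410756-50416943, 6187 bases, 93411 bases upstream) had a log2 fold change of 1.09 ± 0.21 (standard error) in the authors' deposited table, a ratio of 2.13, at a mean level of 154 and an adjusted p-value of 0.000562. The middle one (chr20:50420769-50425199, 4430 bases, 85155 bases upstream) had 0.88 ± 0.24, at a level of 119 and an adjusted p-value of 0.0301 by the same deposited table. The nearest and widest (chr20:50433187-50445123, 11936 bases, 65231 bases upstream) had 0.95 ± 0.20, at a level of 286 and an adjusted p-value of 0.00259 by the authors' deposited table. The last was the highest and widest of all PTPN1 regions, with a level above that of the start region. Relative to the table's median these 3 changes were 0.77, 0.55 and 0.63, and none was called once that median was subtracted, with adjusted p-values of 0.125, 0.702 and 0.311. After that subtraction 45 regions, or 0.124% of those tested, were called in the whole table.

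The 3 calls among 22 tested regions are 13.6%, beside 1.67% in the whole table, or 1.65% for positive calls, and the gene was chosen with this count known. The called region nearest the threshold was the middle one at 0.0301. Just outside it lay a region 45463 bases upstream (chr20:50462623-50464891), with a log2 fold change of 1.02 ± 0.31 (standard error), a level of 36.4 and an adjusted p-value of 0.0555 by the authors' deposited table. The called regions were 0.58 to 0.79 above the start region on the log2 scale. The 95% intervals of all 3, whose lower ends were 0.67, 0.40 and 0.55, overlapped that of the start region, which reached 0.70. Overlap of intervals does not decide whether the values differ. The difference was not tested, because these values chose the gene.

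The upstream members around the called regions were also positive. The 3 calls span 34.4 kb, and the 2 further regions inside that span had log2 fold changes of 0.56 ± 0.30 and 0.62 ± 0.39 (standard errors) in the authors' deposited table. From 121 to 45 kb upstream, 16 neighbouring regions in a row lay above the table's median, with log2 fold changes from 0.45 to 1.40 in the authors' deposited table. This stretch (chr20:50389489-50464891, 75.4 kb) was picked out after its values were seen. Of its 16 regions 9 were tested. The highest tested value of all PTPN1 regions was 1.22 ± 0.40 (standard error), 58552 bases upstream, at a level of 21.6 and an adjusted p-value of 0.0808 by the authors' deposited table. Its interval ran from 0.44 to 2.01, which held the values of all 3 called regions.

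The tested upstream regions were described in steps of 50 kb from the start. In the authors' deposited table the 6 tested regions nearer than 50 kb had a median log2 fold change of 0.43, from 0.11 to 1.09. The 7 between 50 and 100 kb had a median of 0.88, from 0.56 to 1.22 in the authors' deposited table, and include every call. The 4 beyond 100 kb had a median of 0.62 and lay between 0.58 and 0.68 in the authors' deposited table. The highest 2 of the nearest group, at 1.09 ± 0.38 and 1.02 ± 0.31 (standard errors), were its 2 farthest from the start, at 49104 and 45463 bases. The 4 tested regions nearer than those, at 11.9 to 33.8 kb, lay between 0.11 and 0.44 in the authors' deposited table. Values lay near the table's median close to the start and above it farther upstream, while the standard errors of single regions, with a median of 0.31 over the tested ones, were as wide as many of these steps.

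Inside the gene the changes were smaller. The 4 tested downstream regions had log2 fold changes of 0.07 ± 0.32, 0.05 ± 0.35, 0.08 ± 0.24 and 0.36 ± 0.22 (standard errors) in the authors' deposited table, in order of distance from the start, with mean levels of 32.3, 23.8, 99.2 and 114. All 4 intervals held 0, and 1 of the 4 lay above the table's median. The median of the 17 tested upstream regions was 0.64 and that of the 4 downstream ones 0.08 in the authors' deposited table. Across the 22 tested regions, Spearman's correlation of the signed distance, upstream positive, with the fold change was 0.63, and that of level with fold change was -0.08. These are descriptions over regions that share the same libraries, and have no test. The highest-level intragenic region (chr20:50560005-50564611) had about the level of the region 25.1 kb upstream (chr20:50482503-50485299), at 114 and 115, with log2 fold changes of 0.36 ± 0.22 and 0.44 ± 0.23 in the authors' deposited table.

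All 22 tested PTPN1 regions were positive, where 87.3% of all tested regions were. Counted without the filter on level, 39 of 47 were positive and 8 negative in the authors' deposited table, and the whole table had 73.7% positive. Of the 8 negative ones 5 lay inside the gene, and none had an adjusted p-value. The most negative (chr20:50555486-50555725), -1.36 ± 1.07 (standard error), was also the lowest in level at 2.88 in the authors' deposited table. Among the 25 regions without an adjusted p-value 3 had an unadjusted p-value under 0.05, all upstream and positive. The largest of these was 1.40 ± 0.46 (standard error) in the authors' deposited table, 51862 bases upstream at a level of 13.6. The standard error was smaller at higher levels, with a Spearman correlation of -0.99 between level and standard error over the 47 regions. At the median standard error of the 25 untested regions, 0.53, a log2 fold change of 0.88 or 0.95, as in 2 of the called regions, has a 95% interval that holds 0.

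Among the tested regions 8 of 22, or 36.4%, had an unadjusted p-value under 0.05, all positive and all upstream. Over the whole table, 17.9% of tested regions were positive with such a p-value. The rule used these values too, so the count is a description. Of the 8, 5 lay between 50 and 100 kb upstream, 2 nearer and 1 farther.

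**Figure D1:**
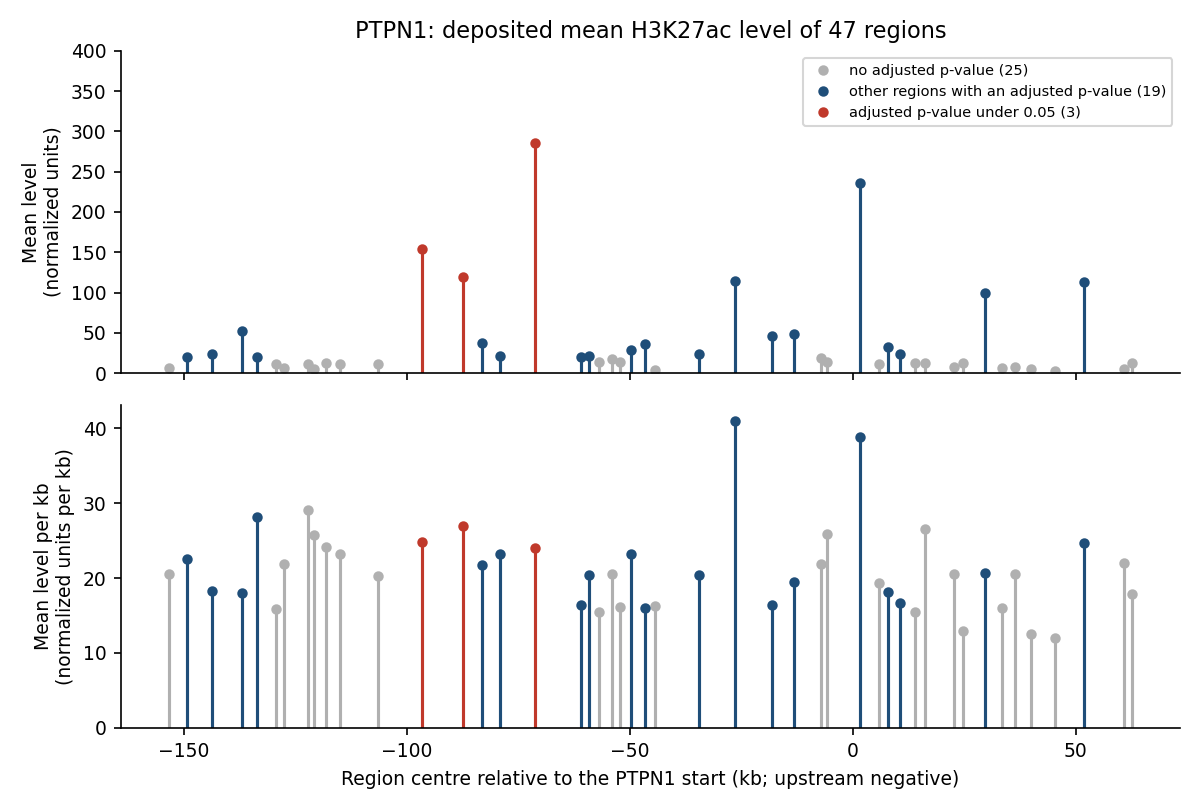
Mean level of each PTPN1 region in the authors' normalized units (upper panel) and the same per kb of region width (lower panel), against distance from the PTPN1 start in kb. Colours are red for called, blue for other tested and grey for untested regions; the widest called region reaches 286 and the start region 236, while per kb the start region, at 38.8, stands above all 3 called regions, at 24.0 to 26.97.

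Level depended closely on width. The 3 called regions together held 30.5% of the summed level of the 47 and 28.9% of their covered bases, and the start region held 12.9% and 7.78%. Per kb of width, the called regions had levels of 24.9, 26.97 and 24.0, the start region 38.8, and the whole set had a median of 20.6 and a range from 12.04 to 41.0 normalized units per kb. The densest region was the one 25.1 kb upstream, at 41.0. The called regions stood out less per kb than in level, and Spearman's correlation of width with level over the 47 was 0.96, a description over regions of the same libraries. Median width was 861 bases for PTPN1 and 908 for the whole table.

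The upstream regions lay mostly between annotated genes. The 3 farthest members, 143 to 153 kb upstream, overlapped a long non-coding RNA gene (LOC105372657, chr20:50350698-50368866), and the other 28 upstream members overlapped no RefSeq gene of any kind. Whether these regions act on PTPN1 was not measured.

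**Figure D2:**
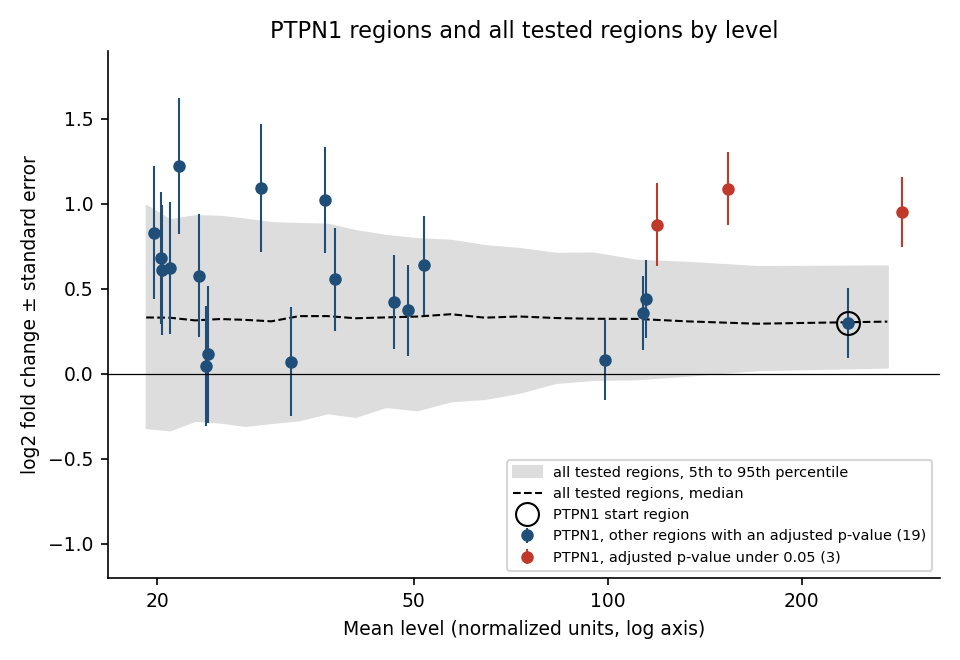
Log2 fold change (y axis; bars are the authors' standard errors) against mean level (x axis, log scale) for the 22 tested PTPN1 regions, over the 5th to 95th percentile (grey) and median (dashed) of all tested regions in 20 bins of level. The 3 called regions (red), at levels of 119 to 286, lie above the grey band, and the circled start region, at 236, lies at the dashed line. Uncalled regions at 1.22, 1.09 and 1.02, at levels of 21.6, 29.0 and 36.4, also lie above the band.

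Set against all tested regions of the authors' deposited table, the called ones ranked above 98.9%, 96.2% and 97.5% by log2 fold change, and the start region above 46.0%. Of 55 genes with at least 20 tested regions, PTPN1 had the second highest median, 0.59, after KLF4, with 0.63 over 23 regions. By the authors' deposited table those 55 medians lay between -0.10 and 0.63, the middle one at 0.26, and 5 of the 55 genes had only positive tested regions. The median of the distal PTPN1 regions was 0.31 above the start region, and 95.4% of the genes compared in this way, those with at least 5 tested regions and one at distance 0, had a smaller value. The middle value over them was -0.09. PTPN1 was proposed for this kind of pattern, so its rank is a description.

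Other regions of the same stretch of chromosome 20 gave the local background. Within 500 kb of the PTPN1 regions lay 114 regions of other genes, 64 of them tested, with a median log2 fold change of 0.33 in the authors' deposited table, which is 0.01 above the table's median. The tested PTPN1 regions had a median of 0.59 and distal ones 0.61. Of the 64, 1 was called, or 1.56%, near the 1.67% of the whole table. An unadjusted p-value under 0.05 was found at 10, or 15.6%, where the whole table had 18.4% in either direction. The 45 at lower coordinates, toward CEBPB, had a median of 0.37, and the 19 at higher coordinates, toward KCNG1, 0.20.

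CEBPB, which encodes a transcription factor of the inflammatory and fat cell programmes, is the neighbour on the upstream side in the table. Its 18 tested regions had a median log2 fold change of 0.43, from 0.08 to 0.93, in the authors' deposited table, and none was called. All 18 were positive, 14 lay above the table's median and 6 had an unadjusted p-value under 0.05 in that DESeq2 comparison. For PTPN1 these counts were 22, 17 and 8 of 22, so being positive throughout was shared with this neighbour. The CEBPB-assigned region next to the PTPN1 set (chr20:50345444-50350935) had 0.60 ± 0.23 (standard error), and the PTPN1 region that follows it among the tested ones had 0.61 ± 0.38 in the same deposited table. These 2 values, on either side of the border between the assignments, differed by less than either error. On the far side, 6 tested regions assigned to FAM65C, an older symbol of RIPOR3, had a median of 0.04 and lay between -0.19 and 0.33 in the authors' deposited table. Of these 6, 5 lay below the table's median, as did 3 of the 4 tested regions inside PTPN1.

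The regions at neighbouring starts lay around the table's median. By the authors' deposited table, regions at distance 0 numbered 11 in this neighbourhood, none called, with a median log2 fold change of 0.32. Calls at distance 0 were few in the whole table too, at 86 of 9996 tested regions. From lower to higher coordinates they had 0.23 ± 0.21 (standard error) at SPATA2, 0.52 ± 0.22 at RNF114, 0.25 ± 0.21 at SNAI1, which encodes a transcription factor of epithelial to mesenchymal transition, and 0.18 ± 0.20 at UBE2V1 in the authors' deposited table. TMEM189, now PEDS1, had 0.32 ± 0.24 and CEBPB 0.44 ± 0.22 in the same deposited table. Beyond PTPN1 the values were 0.37 ± 0.27 at PARD6B, 0.30 ± 0.32 at BCAS4, 0.32 ± 0.19 at ADNP, 0.11 ± 0.19 at the start shared by DPM1 and MOCS3, and 0.57 ± 0.23 at KCNG1 in the authors' deposited table. The PTPN1 value of 0.30 ± 0.20 lay within their range. The one call among the neighbours lay 522 kb from the PTPN1 start, beside KCNG1 (chr20:51032488-51037200), with 1.06 ± 0.23 and an adjusted p-value of 0.00277 by the authors' deposited table. It too was lost after the table's median was subtracted, with an adjusted p-value of 0.234.

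**Figure D3:**
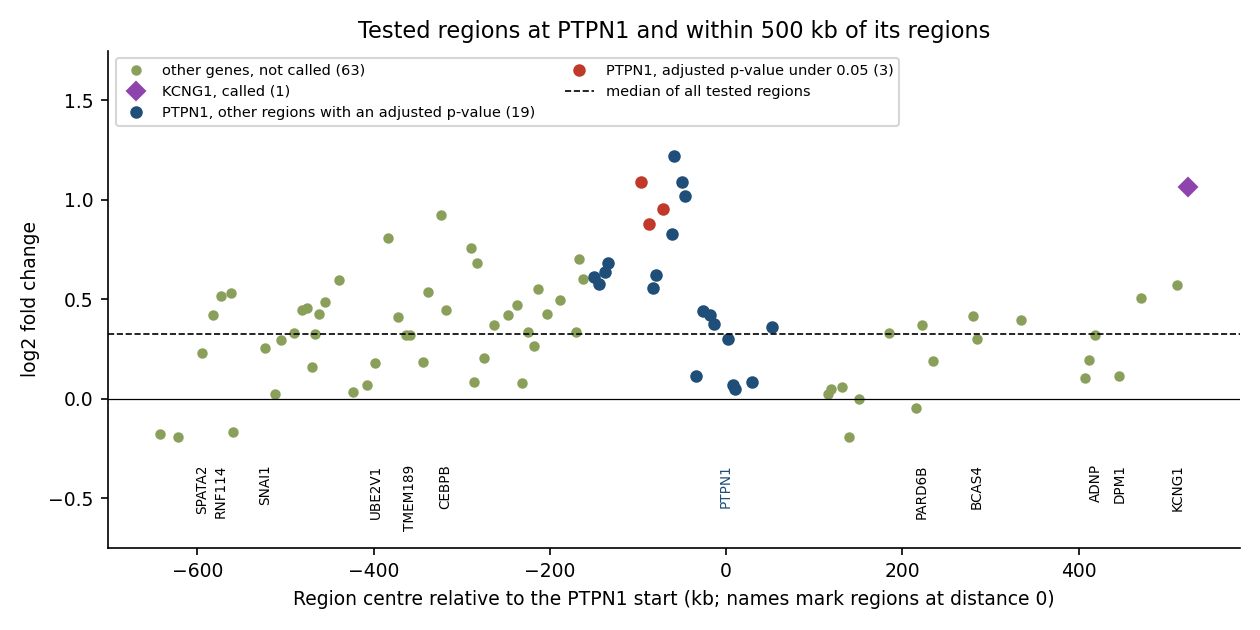
Log2 fold change of the tested regions at PTPN1 (blue; called in red) and of the 64 tested regions of other genes within 500 kb (green; the called KCNG1 region as a purple diamond), against distance from the PTPN1 start in kb. Names mark genes with a region at distance 0, and the dashed line is the table's median of 0.32. The highest PTPN1 points stand upstream of its start, and the green points just beyond the gene lie near 0.

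Regions beside 42 genes of the signalling pathways PTP1B takes part in, with related phosphatases and regulators, were described next. The list was compiled from general knowledge of the phosphatase, with results of these data already known. All 42 genes had regions, 454 in number, of which 209 were tested, and 1 was called, or 0.478%, beside 1.67% in the whole table. An unadjusted p-value under 0.05, in either direction, was found at 29, or 13.9%, beside 18.4% in the whole table. By the authors' deposited table their median log2 fold change was 0.28, below the 0.32 of all tested regions, and 84.2% were positive.

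Insulin and IGF1 signalling genes held 67 tested regions with a median log2 fold change of 0.19 in the authors' deposited table, 7 of them at an unadjusted p-value under 0.05 and none called in that DESeq2 comparison. IRS2, the insulin receptor substrate with the highest start-region level of this group (698), had 0.32 ± 0.20 (standard error) at its start. The receptor gene INSR had 0.49 ± 0.30 at its start and a median of 0.56 over 5 tested regions in the authors' deposited table, none called. Leptin, cytokine and STAT genes held 28 tested regions with a median of 0.35, 9 of them at such a p-value and none called. These 9 of 28 are a larger share than the 18.4% of the whole table, and the 7 of 67 above a smaller one. At its start SOCS3, a feedback inhibitor of cytokine signalling, had the highest level of that group (241) and a log2 fold change of 0.22 ± 0.22, and the kinase genes JAK2 and TYK2 had 0.56 ± 0.23 and 0.59 ± 0.25 (standard errors) in the authors' deposited table. The highest single value of the group, 1.16 ± 0.42, was at a distal region assigned to LEPR, the leptin receptor gene. That region had a distance of -372052 bases, a level of 19.3 and an adjusted p-value of 0.122 by the authors' deposited table. At its start LEPR had 0.20 ± 0.23 (standard error), and its 6 tested regions had a median of 0.25.

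Other receptor kinases and adaptors held 42 tested regions with a median log2 fold change of 0.30 in the authors' deposited table, 6 of them at an unadjusted p-value under 0.05 and none called. SHC1, an adaptor, had the highest start-region level (653) and 0.36 ± 0.21 (standard error) there, and EGFR 0.54 ± 0.30 at its own, in the authors' deposited table. Genes of SRC control and adhesion held 56 tested regions with a median of 0.24, 4 of them at such a p-value and none called. CAV1, the caveolin gene, had 0.32 ± 0.20 at its start at a level of 384, and SRC had 0.21 ± 0.21 (standard errors) in the authors' deposited table. Phosphatases and other regulators held 16 tested regions with a median of 0.34, 3 of them at such a p-value, the 1 call included. PKM, the pyruvate kinase gene, had the highest start-region level of these (384) with 0.32 ± 0.22 (standard error). PTPN2, the closest relative of PTPN1, had 0.27 ± 0.28 at its start, and PTPN11, the gene of SHP2, 0.18 ± 0.23 (standard errors) in the authors' deposited table. These levels are per region and not per length, and the start values given for pathway genes lay between 0.18 and 0.59. Over the whole list, tested start regions ran from 0.07 at GRB2 to 0.77 at GRB10.

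**Figure D4:**
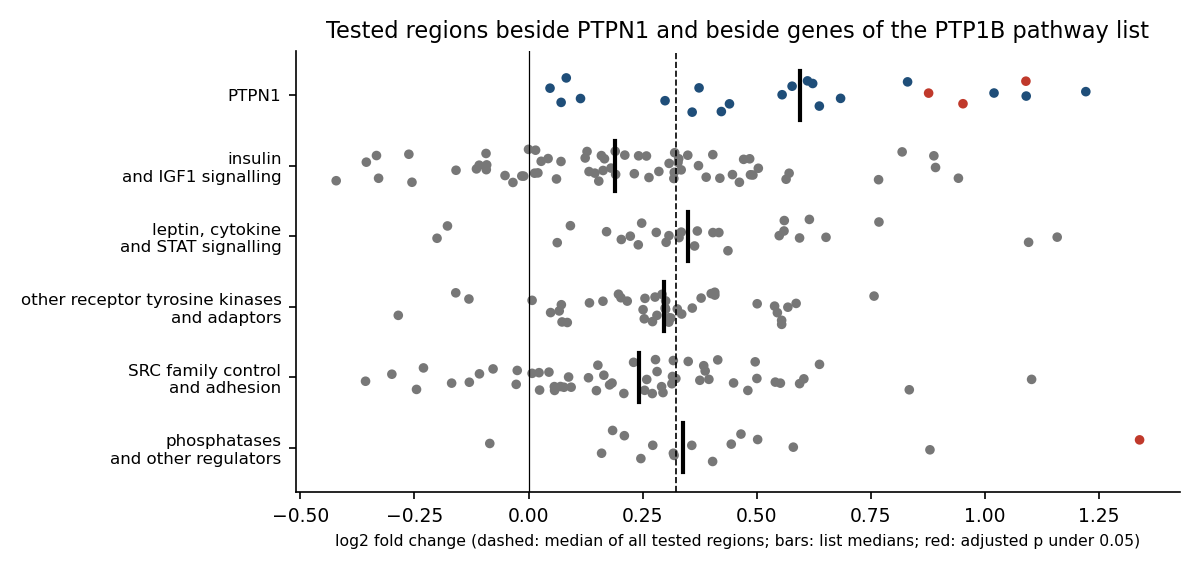
Log2 fold change of the tested regions beside PTPN1 (blue; called in red) and beside the 42 pathway genes grouped by role (grey; the 1 called region in red); each point is a region, vertical bars are group medians and the dashed line is the table's median of 0.32. The PTPN1 bar stands at 0.59 and those of the 5 roles between 0.19 and 0.35.

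Genes with a like pattern were sought by the distance over the log2 fold change of the start region, the median of the distal regions and the largest distal value, among 1640 other genes with at least 5 tested regions. The 5 nearest were ASXL2, ARAP1, PTTG1, PARP8 and DLX2, at distances from 0.13 to 0.17 on the log2 scale. In the authors' deposited table ASXL2 had 0.23 at its start, a distal median of 0.56 and a largest distal value of 1.12, where PTPN1 had 0.30, 0.61 and 1.22. ARAP1 had 0.36, 0.65 and 1.10 in the same deposited table. Each of the 5 had only 5 or 6 tested regions against 22 for PTPN1. ASXL2 and ARAP1 had 1 call each and the other 3 had none. At least as many calls as the 3 of PTPN1 were found beside 13 genes, PTPN1 included. CDCP1 and HMGA2 had 5, GRHL3 and NEK2 4, and those with 3 included ALG10, AREG, CHRNA9, CUL2, PDE2A, POU5F1B and RAP1GAP2 in the authors' deposited table. HMGA2, with 22 tested regions as for PTPN1, had a median of 0.26 over them.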

How the data were processed

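H3K27ac chromatin immunoprecipitation libraries of A375 cells were grouped by the treatment in the labels. The submitters' processing notes name hg38, Trim Galore, cutadapt, FastQC, Bowtie2, Picard, MACS2, featureCounts, DESeq2 and bedtools 2.29.1, with no settings. The 1 file used is the authors' own comparison, whose headers have DESeq2's layout. Per the file headers, it holds a mean normalized signal by the authors, a log2 fold change with its standard error, a score (fold change over its error), p-values and a distance. An adjusted p-value of 1, which the deposited table gives to low-level regions, was read as not computed. Depth per library is unknown, and 0 columns of single libraries were left out.

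Where lines repeated a region, the line with the smallest distance was kept. Counts of regions and calls per gene used every line, so a shared region counted for each of its genes. The planned edgeR test across libraries was not run without values per library, so the deposited values are described. Centring subtracted the median of tested regions, took two-sided normal p-values from the authors' standard errors and applied Benjamini-Hochberg adjustment over all tested regions. It was tried on simulated data with 200 regions changed by more than the called PTPN1 regions were. How centring treats changes of their size was not tested. Intervals are 1.96 standard errors to each side. Named genes were every PTPN1 region, neighbours with a region at distance 0 within 500 kb, pathway genes with a call or the highest start level of a role, the 5 most alike and genes with as many calls; some that meet this rule are not reported here. LEPR, INSR, JAK2, TYK2, EGFR, SRC, PTPN2, PTPN11, KLF4 and FAM65C were added after values were seen. Members and lists were chosen with earlier results of these data known. RefSeq of GRCh38.p14 gave gene spans and the promoter. Python 3.11.15, pandas 2.3.3 and SciPy 1.17.1 were used.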

Additional observations from a re-analysis of the deposited data

How the results depend on the processing

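Centring on the table's median took the PTPN1 calls from 3 to 0 (with 6 of the 22 tested regions at an unadjusted p-value under 0.05, all above the median) and the pathway calls from 1 to 0 (with 8 of 209, of which 3 lay above the median), using normal p-values from the deposited errors of the DESeq2 comparison. Centring also set the median log2 fold change at 0.27 for PTPN1, 0.29 for its distal regions, 0.0061 for the neighbourhood and -0.0463 for the pathway list, and the PTPN1 start region at -0.0243; the last of these lie below 0 because they lay below the subtracted median. A minimum size of 1 on the log2 scale left 1 PTPN1 call. The 1 pathway call was lost, leaving 0, under a threshold of 0.01, under adjustment across all distinct regions and under a level filter of 30. PTPN1 had a count of 2 under that threshold and under adjustment across all distinct regions, where the region 85155 bases upstream had 0.0742. Filters on level of 10 and 30 left it at 3. Over all 47 regions the PTPN1 median was 0.45. The remaining planned settings, on level filters, weighting by level, distance and window, moved no median by more than the median standard error of its regions.

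No paired analysis was possible because only the authors' comparison, without values of single libraries, was used. A replicate block, leaving out libraries and edgeR with other normalizations were not run, and samples were not checked for outliers, since each needs such values. The 25 PTPN1 regions without an adjusted p-value had mean levels of at most 18.4 and a median standard error of 0.53; depth per library is unknown.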
